A study of Mus musculus with 6 samples.

Results

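The genes of prostaglandin synthesis and reception were followed in cultured mouse lung fibroblasts after exposure to DKK1. The set holds 10 genes chosen by symbol: the phospholipase Pla2g4a, the cyclooxygenases Ptgs1 and Ptgs2, the synthases Ptges, Ptges2 and Ptgis, the degrading enzyme Hpgd, and the receptors Ptger2, Ptger4 and Ptgfr. All 10 were found among the 45706 genes of the deposited table, and all 10 passed the filter on low counts, which left 14635 genes to test.

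The series asked which genes respond to DKK1 in such cells. The cells came from lungs of wild-type mice, dissociated with collagenase and trypsin, and were grown for 7 days before they were detached and purified. Strain, sex and age of the mice and the purification method are not given in the sources used here. The control group (3 libraries) is labelled only as control, without a stated vehicle. The DKK1 group (3 libraries) received recombinant mouse DKK1, a secreted antagonist of the Wnt co-receptors LRP5 and LRP6, at 30 ng/ml for 24 hours. The labels do not say whether libraries of a group came from separate animals or cultures, so p-values measure the spread between these libraries, which may be technical.

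Prostanoids are short-lived lipid signals made from arachidonic acid. A phospholipase frees the fatty acid from membranes, a cyclooxygenase turns it into prostaglandin H2, and a terminal synthase converts that into prostaglandin E2, prostacyclin or another product. The signal acts on receptors of the same and neighbouring cells and ends when the prostaglandin is taken up and oxidised. In the lung, prostaglandin E2 from fibroblasts is known to restrain fibroblast proliferation and collagen synthesis through receptors that raise cyclic AMP.

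Library totals ranged from 22565917 to 34727102 expected counts, so that the 3 counts taken as the floor of detection corresponded to 0.0864 to 0.133 CPM (counts per 1000000 counts of the library). Fibroblast markers were abundant: the 8 listed genes summed to 9961 to 12090 CPM in the 6 libraries. With the replicate number as a block term, 2 of them were called higher with DKK1 (Pdgfra and Dcn; 4.96% of all tested genes were) and 4 lower (Col1a1, Col1a2, Pdgfrb and Thy1; 4.46% of all), and 0 were called by edgeR without it (2 had an unadjusted p under 0.05, against 10.6% of all). Other cells were also represented. The 8 macrophage and leukocyte markers, all detected in every library, summed to 418.5 to 833 CPM in control and 465.6 to 873.6 CPM in DKK1 libraries, against 20.9 to 58.1 CPM for 5 endothelial and 37.6 to 122.2 CPM for 6 epithelial markers. Lyz2 alone made up most of the macrophage and leukocyte sums, at 340 to 696.3 CPM in control and 369.7 to 722.2 CPM in DKK1 libraries. Mesothelial markers (5 genes) summed to 23.3 to 55.3 CPM. Of the 5 mast cell markers, Cpa3, Tpsb2 and Fcer1a had no count in any library. The 5 myofibroblast and smooth muscle markers summed to 8971 to 10030 CPM in control and 7676 to 8966 CPM in DKK1 libraries; Myh11 was called lower (0.198% of all tested genes were), and all 5 were when the replicate number entered as a block (4.46% of all). Replicate 3 of both groups stood apart, with the highest sums of macrophage (833 and 873.6 CPM, against 418.5 to 507.4 CPM elsewhere), endothelial, epithelial and mesothelial markers. In such bulk RNA, fewer cells of a type and less RNA per cell cannot be told apart.

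Ptgs2 and Ptger2, which encode the inducible cyclooxygenase and the EP2 receptor for prostaglandin E2, were higher in DKK1-treated cells, each by nearly 1.5-fold (Ptgs2 1.48-fold, Ptger2 1.45-fold). A gene was called where its Benjamini-Hochberg adjusted p, over all tested genes, was below 0.05 in the quasi-likelihood test of edgeR. By this rule 2 of the 10 genes were called, both higher, where 0.895% of all tested genes were called and 0.697% were called higher. Without control replicate 1 or 2, or DKK1 replicate 1 or 2, 0 of the 10 were called, and 36 to 57 over all genes. A second model took the replicate number as a block. It called 7 of the 10, against 9.42% of all tested genes: Pla2g4a, Ptgs1, Ptgs2, Ptges, Ptger2 and Ptgfr were higher (6 genes, against 4.96% of all) and Hpgd was lower (1 gene, against 4.46%). Hpgd passed the low-count filter only through the control group, and without it the block model called 6 of 9. Before adjustment, 5 of the 10, Hpgd among them, had p under 0.05 in the edgeR test without the block, as had 10.6% of all tested genes. Ptges2, Ptgis and Ptger4 were called in neither model. The genes were picked with earlier results of these data known, so these counts describe the set and are no test of it.

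Most of the genes differed in the same direction in every pair of libraries. Comparing libraries of the same replicate number, 7 of the 10 genes were higher with DKK1 in all 3 pairs, as were 22.3% of all tested genes, and 2, Ptges2 and Hpgd, were lower in all 3, as were 19.5%. Ptgis was mixed. The CPM of the groups did not overlap for Ptgs2, Ptger2 and Hpgd, 3 of 10 genes against 16.5% of all tested genes. Hpgd passed the low-count filter only through the control group, where it is high, so its place in these counts is a description. Without Hpgd only Ptgs2 and Ptger2 were free of overlap, a count near the share of all genes. The median log2 fold change over the 10 was 0.19, beside -0.00091 over all genes tested.

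**Figure D1:**
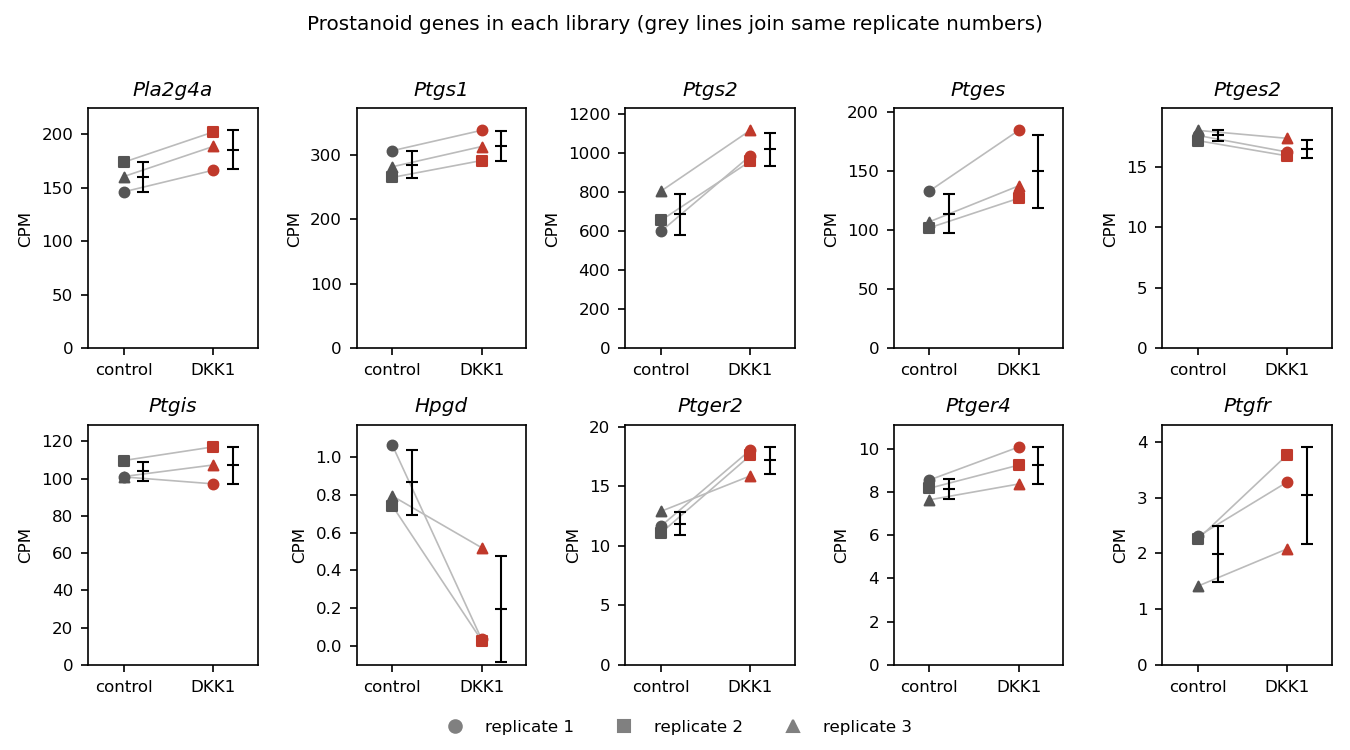
CPM of the 10 genes in each of the 6 libraries (y axis; the Hpgd axis extends below 0 for its error bar), control in grey and DKK1 in red; marker shapes and grey lines give the replicate number, and black bars the mean ± SD of 3 libraries. The groups are apart for Ptgs2, Ptger2 and Hpgd, and every line rises for 7 genes.

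**Figure D2:**
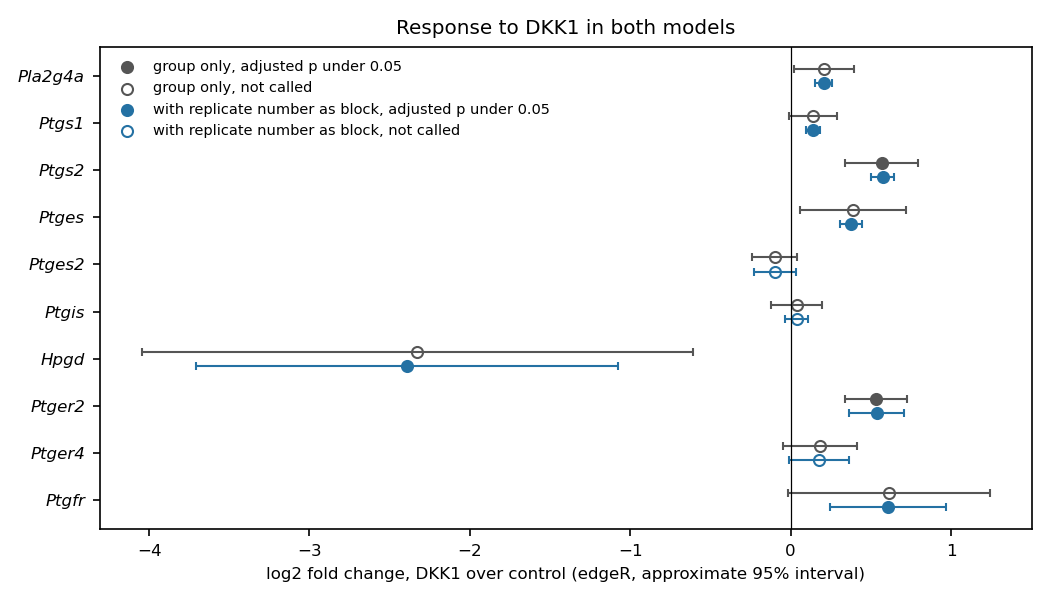
Log2 fold change of each gene (x axis, DKK1 over control) from edgeR in the group-only model (grey) and the block model (blue), with approximate 95% intervals; filled points have an adjusted p under 0.05. Both models give nearly the same fold changes, and 2 genes are filled without the block against 7 with it.

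Levels were compared between genes per kilobase of the longest annotated protein-coding transcript, since longer transcripts yield more fragments; which transcripts the cells used is not known, so the order is approximate. In control cells the cyclooxygenases led, with Ptgs2 at 154 ± 23.9 and Ptgs1 at 99.1 ± 7.27 CPM per kilobase (SD, n = 3 each). Pla2g4a (56.1 ± 4.85) and Ptgis (49.3 ± 2.39) followed and overlapped each other, and Ptges stood at 31.3 ± 4.57 CPM per kilobase. Ptges2 (3.53 ± 0.0858) and Ptger2 (3.22 ± 0.252) overlapped far below that level, above Ptger4 (2.45 ± 0.139), Hpgd (0.515 ± 0.102) and Ptgfr (0.301 ± 0.0758). No other neighbours in this order overlapped between libraries. In DKK1-treated cells Ptger2, at 4.66 ± 0.311 CPM per kilobase, lay above Ptges2, at 3.31 ± 0.153, without overlap, and Hpgd was the lowest of the 10 at 0.116 ± 0.168.

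**Figure D3:**
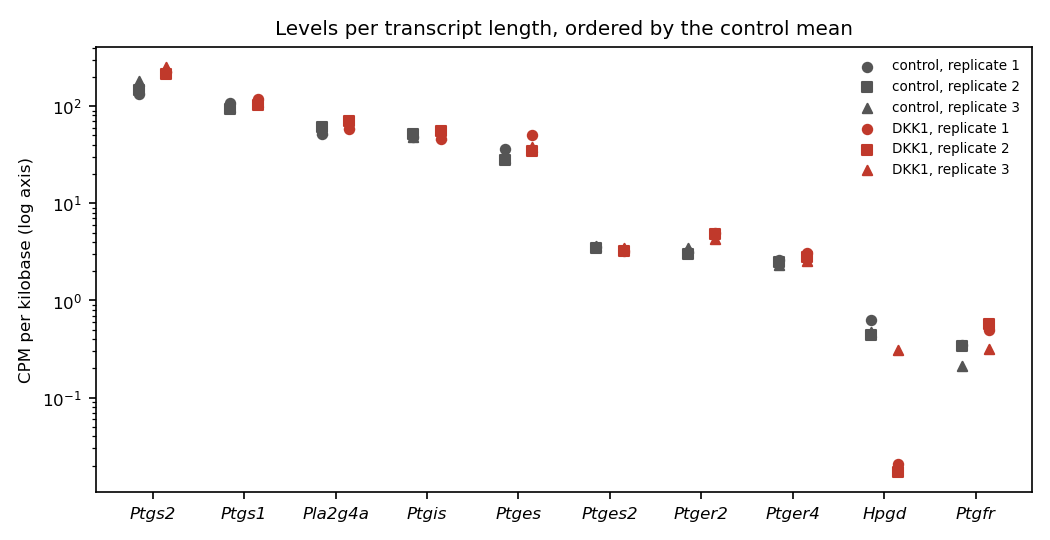
Level of each gene per kilobase of its longest protein-coding transcript (y axis, CPM per kilobase, log axis) in 3 control (grey) and 3 DKK1 (red) libraries, ordered by the control mean. The 5 genes from Ptgs2 to Ptges lie well above Ptges2, Hpgd and the receptors, and Hpgd is widely scattered among DKK1 libraries.

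Release of arachidonic acid is the first step. Pla2g4a (ENSMUSG00000056220, chr1:149829618-149961290, minus strand, GRCm38) encodes the cytosolic phospholipase A2 that cuts it from membrane lipids. It measured 146, 174 and 161 CPM in control replicates 1 to 3 and 166, 202 and 189 CPM in the DKK1 libraries. Each DKK1 library was above the control library of the same number, by 0.19 to 0.23 on the log2 scale. The groups overlapped, with replicate 1 lowest and replicate 2 highest in both. The fold change, 0.21 on the log2 scale (SE 0.08), was not called by edgeR without the block (adjusted p = 0.401), and the block model gave the same value with an SE of 0.02 (adjusted p = 7.38e-05). Without DKK1 replicate 2, the group-only value was 0.14.

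Ptgs2 (ENSMUSG00000032487, chr1:150100031-150108227, plus strand) is the cyclooxygenase that cells switch on after inflammatory stimuli. Its upstream sequence is shown because it is the most abundant of the 10 genes and one of those that rose. The 250 bases before the RefSeq start, from RefSeq on GRCm38.p6 (chr1:150099781-150100030, plus strand), read 5′ to 3′ with the matched motif in capitals.
Ptgs2 upstream: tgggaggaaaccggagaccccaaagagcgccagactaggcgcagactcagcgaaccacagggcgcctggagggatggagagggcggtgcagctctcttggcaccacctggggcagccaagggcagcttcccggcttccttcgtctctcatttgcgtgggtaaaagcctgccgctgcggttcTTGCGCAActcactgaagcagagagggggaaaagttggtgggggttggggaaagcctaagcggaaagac
The capitals mark TTGCNNAA, a C/EBP-type motif that reads the same on both strands here, 69 to 62 bases before the start. This motif occurred in 9.56% of the 32851 promoter windows of the same length. The other motifs searched on both strands in this window had no match: the NF-kB motif (by name), the TATA box (TATAAA), the full cyclic AMP response element (TGACGTCA), the shorter form contained in it (TGACG), the AP-1 motif (TGANTCA), the E-box (CACGTG) and the TCF/LEF motif (CTTTGA). Their shares of all windows were 7.25%, 12.4%, 1.55%, 17.8%, 6.75%, 6.02% and 13.8%, in that order. The match and the absences describe these letters and this window alone. Promoters were found for 9 of the 10 genes, and Ptgis was not among them.

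The upstream sequence of Ptger2, the other gene called without the block, is given for comparison (chr14:44987861-44988110, plus strand, GRCm38.p6, RefSeq).
Ptger2 upstream: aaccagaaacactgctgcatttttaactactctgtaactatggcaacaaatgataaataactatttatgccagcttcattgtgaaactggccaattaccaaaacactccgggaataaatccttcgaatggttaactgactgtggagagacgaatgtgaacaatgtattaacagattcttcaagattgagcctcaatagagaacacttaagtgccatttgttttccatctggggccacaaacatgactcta
None of the motifs searched matched here, and the windows differed in base composition, with a GC content of 61.6% for Ptgs2 and 38% for Ptger2. Among the other genes, the window of Ptges2 held CACGTG and 1 of the windows of Pla2g4a held TATAAA.

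Ptgs2 measured 599, 655 and 805 CPM in control replicates 1 to 3, and 986, 959 and 1117 CPM in the DKK1 libraries. The lowest DKK1 library was above the highest control library, and replicate 3, which also had the most macrophage marker RNA (833 CPM in control, 873.6 CPM with DKK1), was the highest of each group. In edgeR, Ptgs2 rose by 0.57 on the log2 scale (SE 0.10) at an adjusted p of 0.0464, and the block model lowered the SE to 0.03 (adjusted p = 1.93e-07). Same-numbered libraries differed by 0.72, 0.55 and 0.47 on the log2 scale in replicates 1, 2 and 3. The call without the block was held by a narrow margin. It was lost without control replicate 1 (edgeR adjusted p = 0.132) or 2 (0.184) and without DKK1 replicate 1 (0.165), 2 (0.104) or 3 (0.0975), and stayed without control replicate 3 (0.00732), while the log2 fold change stayed between 0.48 and 0.69. The 5 myofibroblast and smooth muscle markers summed to less in each DKK1 library (at most 8966 CPM) than in any control library (at least 8971 CPM). The part of these cells in the Ptgs2 level was not tested.

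Ptgs1 (ENSMUSG00000047250, chr2:36230426-36252272, plus strand) encodes the constitutive cyclooxygenase. Its values were 306, 265 and 281 CPM in control and 338, 291 and 313 CPM in DKK1 libraries. The groups overlapped, and each pair differed by 0.14 to 0.15 on the log2 scale. At a log2 fold change of 0.14, Ptgs1 was called by edgeR with the block (SE 0.02, adjusted p = 0.000584) and missed the threshold without it (SE 0.07, adjusted p = 0.524). Without the block the value was 0.08 once DKK1 replicate 1 was left out and 0.09 without control replicate 2. RSEM gave it fractional values in all 6 libraries, and it overlaps Gm43621 on the opposite strand, so its level is somewhat uncertain. In CPM, Ptgs2 exceeded Ptgs1 by 1.96-, 2.47- and 2.86-fold in control and 2.92-, 3.29- and 3.57-fold in DKK1 libraries. This ratio was 1.35-fold higher with DKK1, and no control value reached a DKK1 value. With 3 against 3 libraries a two-sided exact permutation p cannot go below 0.1, and it was 0.1 here (0.15 adjusted over 3 ratios).

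Among the synthases, Ptges (ENSMUSG00000050737, chr2:30889471-30929863, minus strand) makes prostaglandin E2 and is the inducible partner of Ptgs2. It measured 133, 102 and 107 CPM in control and 184, 127 and 137 CPM in DKK1 libraries. Replicate 1 was highest in both groups, and DKK1 replicate 2 lay below control replicate 1, so the groups overlapped. The log2 fold change of 0.39 was not called without the block (SE 0.15, edgeR adjusted p = 0.366); with it, the value was 0.38 (SE 0.03, adjusted p = 4.25e-06), and it ranged from 0.33 to 0.41 with 1 pair left out, called each time. Without the block, leaving out 1 library moved it between 0.21 (without DKK1 replicate 1) and 0.51 (without control replicate 1), called in none of the 6 edgeR fits. Ptges and Ptgs1 followed the same order of libraries (r = 0.97 of log2 CPM over the 6 libraries, a description).

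Ptges2 (ENSMUSG00000026820, chr2:32395896-32405772, plus strand), a second, constitutively expressed prostaglandin E synthase, measured 17.6, 17.2 and 18.0 CPM in control and 16.2, 15.9 and 17.4 CPM in DKK1 libraries. The change of -0.10 (SE 0.06) was not called in either model (edgeR adjusted p = 0.65, and 0.393 with the block). Ptgis (ENSMUSG00000017969, chr2:167191805-167240604, minus strand) encodes prostacyclin synthase, of the branch that relaxes vessels and inhibits platelets. It stood at 101, 110 and 101 CPM in control and 97.2, 117 and 107 CPM in DKK1 libraries, a log2 fold change of 0.04 with an approximate 95% interval of -0.12 to 0.20 (edgeR adjusted p = 0.91; with the block 0.04, -0.03 to 0.11, adjusted p = 0.578). A change of Ptgis as large as the 0.57 of Ptgs2 lies outside this interval; the difference between the 2 genes was not tested. The ratio of Ptges to Ptgis was 1.32, 0.929 and 1.06 in control and 1.90, 1.08 and 1.28 in DKK1 libraries. It was higher with DKK1 in all 3 same-numbered pairs, by 0.53, 0.22 and 0.27 on the log2 scale, while the groups overlapped (exact permutation test without the pairing, two-sided, p = 0.4, 0.4 adjusted over 3 ratios). The mean log2 difference of 0.34 was 0.11 without DKK1 replicate 1.

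Hpgd (ENSMUSG00000031613, chr8:56294585-56321043, plus strand) encodes 15-hydroxyprostaglandin dehydrogenase, which inactivates prostaglandins. It was scarce: 24, 21 and 18 counts in control replicates 1 to 3 and 1, 1 and 12 counts in DKK1 replicates 1 to 3. In CPM these were 1.06, 0.743 and 0.795 in control and 0.0349, 0.0288 and 0.52 with DKK1, where the first 2 DKK1 libraries lie under the floor of 3 counts. All DKK1 libraries were below all control libraries, but they were far apart among themselves. Summed over libraries, 14 counts with DKK1 against 63 in control gave a ratio of 0.189 after scaling to the totals (exact 95% interval 0.0977 to 0.341, counting error only). By replicate number the ratio was 0.0328 (0.000798 to 0.201), 0.0388 (0.000937 to 0.241) and 0.655 (0.288 to 1.44), so that the third pair alone does not show a difference beyond counting error.

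Hpgd passed the low-count filter through the control libraries, where it is high, and a filter of 10 counts in every sample left it out, so its calls are given as a description. The fitted log2 fold change of Hpgd was -2.33 (SE 0.75, edgeR adjusted p = 0.281) and was called with the block at -2.39 (adjusted p = 0.0241). One library decided the size: without DKK1 replicate 3 the value was -4.59 and called without a block (adjusted p = 0.0143), and with the block it was not called once pair 2 was left out (-1.88, adjusted p = 0.204). DKK1 replicate 3 had the most macrophage (873.6 CPM), epithelial (122.2 CPM), endothelial (58.1 CPM) and mesothelial (55.3 CPM) marker RNA of the DKK1 libraries; control replicate 3 had similar sums and 18 Hpgd counts. The part of these cells in the Hpgd counts was not tested. The ratio of Ptges to Hpgd was 125, 137 and 135 in control and 5283, 4407 and 264 with DKK1. The first 2 DKK1 values rest on 1 Hpgd count each. Its two-sided exact permutation p was 0.1, again the floor of this design, and 0.15 adjusted over 3 ratios. Since Hpgd passed the low-count filter through the control group, this p describes the ratio and is no test of it.

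Ptger2 (ENSMUSG00000037759, chr14:44988195-45003820, plus strand) encodes EP2, a receptor that raises cyclic AMP on binding prostaglandin E2. It measured 11.7, 11.1 and 12.9 CPM in control and 18.0, 17.6 and 15.9 CPM in DKK1 libraries. The groups were clearly separate, and replicate 3 had the smallest difference, 0.29 on the log2 scale against 0.61 and 0.64 in replicates 1 and 2. In edgeR, Ptger2 rose by 0.53 on the log2 scale (SE 0.08) at an adjusted p of 0.0285, and by 0.54 in the block model (adjusted p = 0.00059). The call without the block was lost without control replicate 1 (adjusted p = 0.131) or 2 (0.132) and without DKK1 replicate 1 (0.148) or 2 (0.118), with log2 fold changes of 0.48 to 0.59 over all 6 omissions. Ptger2 overlaps Gm17173 and Gm49364 on the opposite strand, and whether counting used strand is not stated. Overlaps with annotated genes also exist on the same strand for Ptges (Gm13400) and Hpgd (Gm45540). On the opposite strand they exist for Pla2g4a, Ptgis, Ptger4 and Ptgfr as well.

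Ptger4 (ENSMUSG00000039942, chr15:5206661-5244187, minus strand) encodes EP4, the second receptor of this kind. Values were 8.55, 8.17 and 7.64 CPM in control and 10.1, 9.24 and 8.37 CPM in DKK1 libraries, with overlap. The log2 fold change of 0.18 (SE 0.10) was not called in either model (edgeR adjusted p = 0.61, and 0.262 with the block), although each DKK1 library was above its same-numbered control; without DKK1 replicate 1 the value was 0.11. Ptgfr (ENSMUSG00000028036, chr3:151796502-151837630, minus strand) encodes the receptor for prostaglandin F2 alpha, which couples to calcium release. It was low, at 2.30, 2.26 and 1.41 CPM in control and 3.28, 3.77 and 2.08 CPM with DKK1, from 32 to 131 counts. Without the block, edgeR gave Ptgfr a difference of 0.61 on the log2 scale (SE 0.27) that missed the threshold (adjusted p = 0.487). It was called with the block (SE 0.17, adjusted p = 0.037), and lost that call when any 1 pair was left out (adjusted p = 0.0523, 0.303 and 0.0716 without pairs 1, 2 and 3) and in DESeq2 with the block (0.711).

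The rest of the pathway was read from lists. Of 15 other prostanoid enzymes 12 were tested and 0 were called by edgeR without the block against 0.895% of all genes, with a median log2 fold change of 0.08. Before adjustment 3 of the 12 had p under 0.05 in edgeR, against 10.6% of all. With the block 2 were called, both higher, against 4.96% of all tested genes: Akr1b3, an aldo-keto reductase that can make prostaglandin F2 alpha, from 167 ± 5.46 to 184 ± 11.4 CPM (SD, n = 3 each; log2 fold change 0.13, adjusted p = 0.00732), and its relative Akr1b8, from 58.5 ± 0.959 to 64.0 ± 1.72 CPM (0.12, adjusted p = 0.0468). The Akr1b3 call was lost without pair 3 (edgeR adjusted p = 0.0619) and in DESeq2 with the block (0.0792). The Akr1b8 call was lost in every other block fit run, namely without pairs 1, 2 and 3 (0.124, 0.125 and 0.193), after GC and length correction (0.126) and in DESeq2 (0.759). Ptges3, a cytosolic prostaglandin E synthase that is also a heat shock protein 90 partner, was abundant and not called, at 157 ± 5.00 and 161 ± 6.05 CPM. Among other enzymes of this list, thromboxane synthase Tbxas1 stood at 3.6 ± 1.25 CPM in control, Hpgds at 0.999 ± 0.231 CPM and Ptgds at 0.318 ± 0.0919 CPM.

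Of 10 other receptors and transporters 7 were tested and 0 were called without the block by edgeR, against 0.895% of all tested genes (median log2 fold change 0.04). Before adjustment 3 of the 7 had p under 0.05 in edgeR, against 10.6% of all. With the block 3 of the 7 were called, against 9.42% of all tested genes. The exporter Abcc4, which carries prostaglandins out of cells, was higher, at 25.2 ± 4.02 in control and 30.6 ± 2.44 CPM with DKK1 (log2 fold change 0.28, adjusted p = 0.0033), and so was the transporter Slco3a1, at 151 ± 13.2 and 169 ± 13.9 CPM (0.16, adjusted p = 0.000767). The thromboxane receptor gene Tbxa2r was lower, at 7.06 ± 1.24 in control and 5.16 ± 1.02 CPM with DKK1 (-0.46, adjusted p = 0.0127). The Abcc4 call was lost without pair 2 (edgeR adjusted p = 0.0773) and in DESeq2 with the block (0.138). The Tbxa2r call was lost without pair 2 (0.169) or 3 (0.0676) and in DESeq2 with the block (0.41), and that of Slco3a1 stayed in all of these fits. The group-only value of Slco3a1, 0.16, was 0.09 without DKK1 replicate 1 and 0.10 without control replicate 3. The prostacyclin receptor gene Ptgir had 2.11 ± 0.277 and 3.01 ± 0.362 CPM without overlap and was not called (log2 fold change 0.51, adjusted p = 0.322, and 0.0992 with the block). Slco2a1, the transporter that takes prostaglandins up for breakdown, stood at 58.8 ± 9.26 and 60.8 ± 4.56 CPM and was not called in either model.

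Among 23 genes of arachidonate supply and return, 18 were tested, and 1 was called higher and 1 lower in both models (median log2 fold change -0.05). Over all tested genes the shares were 0.697% higher and 0.198% lower without the block, and 4.96% and 4.46% with it, so the counts with the block are near those of all genes. Acsl4, the acyl-CoA synthetase that activates free arachidonic acid for return to lipids, rose from 118 ± 5.93 to 152 ± 5.07 CPM (SD, n = 3 each; log2 fold change 0.36, SE 0.04, edgeR adjusted p = 0.00876); its adjusted p was 0.0507 without control replicate 1 and 0.0582 without control replicate 2. Mgll, the monoacylglycerol lipase that frees arachidonic acid from 2-arachidonoylglycerol, fell from 21.99 ± 0.793 to 16.4 ± 1.42 CPM (log2 fold change -0.43, SE 0.07, adjusted p = 0.0368). The Mgll call stayed without DKK1 replicate 3 (adjusted p = 0.0219) and was lost without any 1 of the other libraries (0.0866 to 0.173: control replicates 1, 2 and 3 and DKK1 replicates 1 and 2). With the block the adjusted p-values were 1.08e-06 for Acsl4 and 0.000386 for Mgll.

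In the leukotriene and lipoxygenase branch, 7 of 14 genes were tested and 0 were called by edgeR, where 0.895% of all tested genes were called without the block and 9.42% with it. Before adjustment 0 of the 7 had p under 0.05 in edgeR without the block, against 10.6% of all, so with 7 genes these counts are near those of all genes. The median log2 fold change was 0.08. Alox5 and its activating protein gene Alox5ap, markers of myeloid cells as well, measured 3.11 ± 0.812 and 7.02 ± 2.53 CPM in control and 3.36 ± 1.14 and 7.46 ± 1.62 CPM with DKK1. Lta4h, which makes leukotriene B4, was the most abundant of the branch at 64.4 ± 0.713 and 66.2 ± 1.66 CPM.

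Genes that respond to cyclic AMP, the messenger raised by EP2 and EP4, were listed because they lie downstream of these receptors; they respond to other stimuli too. All 16 were tested, 4 were called higher and 0 lower (0.697% and 0.198% of all tested genes; median log2 fold change 0.24). With the block 9 were called higher and 1, Pde4a, lower (4.96% and 4.46% of all). Crem, a cyclic AMP response modulator, rose from 12.1 ± 0.0727 to 18.5 ± 1.5 CPM (SD, n = 3 each; log2 fold change 0.61, SE 0.08, edgeR adjusted p = 0.0116). The nuclear receptor gene Nr4a2 rose from 32.9 ± 4.45 to 48.1 ± 0.942 CPM (0.54, adjusted p = 0.0255), and the phosphodiesterase gene Pde4b from 62.9 ± 1.75 to 76.4 ± 1.07 CPM (0.28, adjusted p = 0.02). Il6 was the fourth (1.37, adjusted p = 0.00154). Leaving out 1 of control replicates 1 and 2 or DKK1 replicates 1 and 2 took the call from Crem (adjusted p = 0.0547 to 0.0729) and Nr4a2 (0.0642 to 0.128), and Pde4b lost it in those and without control replicate 3 (0.0582 to 0.1). Nr4a1, Nr4a3 and Fos had log2 fold changes of 0.56, 0.59 and 0.73. The group-only edgeR test did not call them (adjusted p = 0.0901, 0.116 and 0.0743), while the block model did, as did edgeR without a low-count filter (0.00139, 0.00868 and 0.000636) and DESeq2 without a block (0.000398, 0.0112 and 4.3e-05). Pde3b and Sik1 were called in the edgeR block model, with log2 fold changes of 0.24 and 0.21 (adjusted p = 0.0133 and 0.00658). Both lost that call without pair 2 (0.238 and 0.137) and in DESeq2 with the block (0.472 and 0.0695). In the group-only model Sik1 went from 0.22 to 0.10 without DKK1 replicate 1, and Pde4a from -0.20 to -0.13 without control replicate 3. The lower call of Pde4a (block adjusted p = 0.0173 in edgeR) was lost without pair 1 (0.0658) or 3 (0.109) and in DESeq2 with the block (0.294). Among those called in neither model, Dusp1 was at 202 ± 6.73 and 203 ± 2.33 CPM, and Per1 at 24.8 ± 1.63 and 26.0 ± 1.98 CPM.

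**Figure D4:**
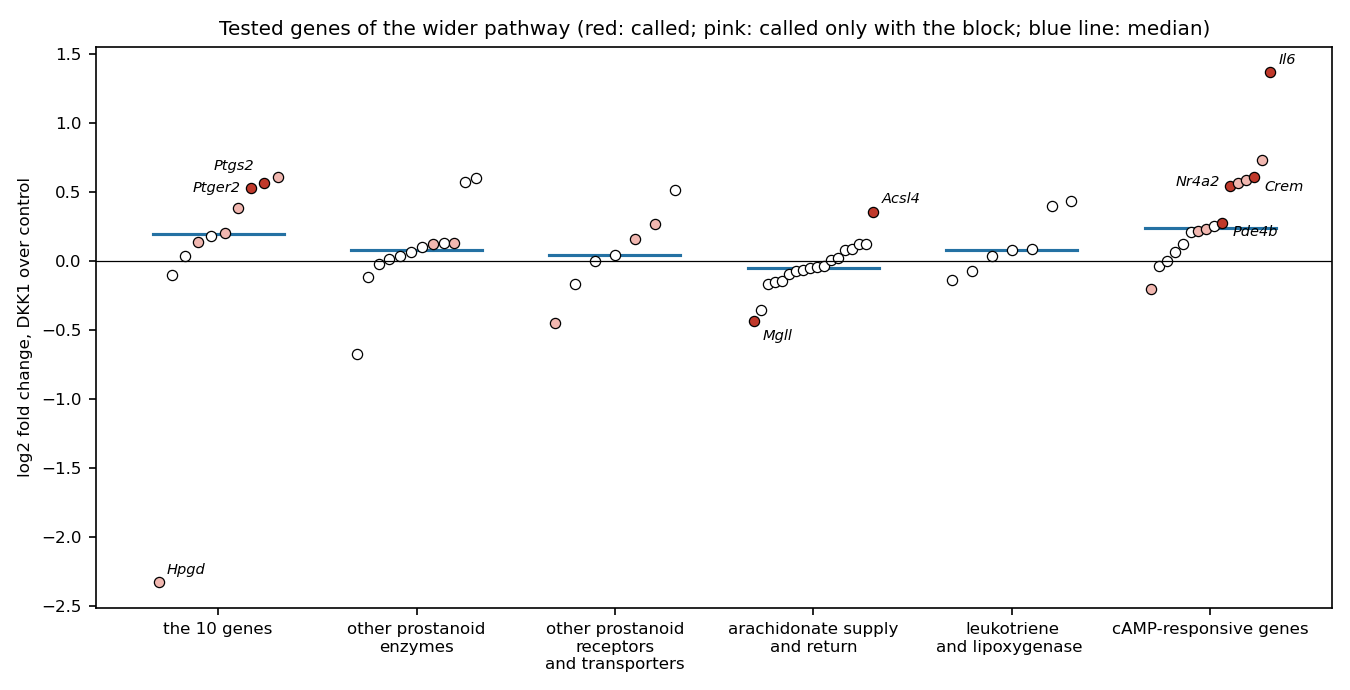
Log2 fold change (y axis, DKK1 over control, edgeR without the block) of every tested gene of the 10 and of 5 further lists, sorted within each list; red points are called without the block, pink points in the edgeR block model but not without the block, and blue lines mark medians. Red points number 2 among the 10 genes, 2 in arachidonate supply and return and 4 in the cyclic AMP list, and the leukotriene list has neither red nor pink points.

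The genes whose level followed Ptgs2 most closely over the 6 libraries, among 10527 genes of at least 5 CPM, were Rdh10 (r = 0.995), Marco (0.992), Vma21 (0.991), Snn (0.990) and Clec4n (0.990), as Pearson correlations of log2 CPM. These are descriptions of 6 libraries in 2 groups that share their replicate structure. Marco and Clec4n encode receptors of macrophages, Rdh10 a retinol dehydrogenase and Vma21 an assembly factor of the proton pump of lysosomes. Marco was at 6.38 ± 3.64 CPM in control and 20.1 ± 8.01 CPM with DKK1 (SD, n = 3 each; log2 fold change 1.65, edgeR adjusted p = 0.116; with the block 2.51e-07), and Clec4n at 7.26 ± 3.58 and 17.6 ± 4.99 CPM (1.27, adjusted p = 0.142; with the block 4.68e-06). Of the 8 macrophage and leukocyte markers, 1, Cd14, was called higher, against 0.697% of all tested genes (from 9.31 ± 0.222 to 16.8 ± 1.18 CPM, adjusted p = 0.0028); with the block 3 were higher (Cd14, Itgam and Adgre1; 4.96% of all tested genes) and 2 lower (Csf1r and Mrc1; 4.46% of all). Their part in the level of Ptgs2 was not tested.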

How the data were processed

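RNA sequencing of 6 samples was used. The deposited values are expected counts per gene, estimated by the authors with RSEM after alignment with STAR to GRCm38 (mm10), going by the names in the submitters' processing notes, which also name edgeR 4.2.1. Versions of the others, the annotation and strandedness are not given in the sources used here. Symbols matched 98.8% of identifiers; coordinates and lengths are from GENCODE M21.

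The expected counts were rounded, then analysed with edgeR 4.0.16 (R 4.3.3): filterByExpr (minimum count 10), TMM, quasi-likelihood test with group as the only term, Benjamini-Hochberg adjustment over all 14635 tested genes. Standard errors are the log2 fold change divided by the root of F. CPM uses the library total; correlations used log2(CPM + 0.5). The script was tested on simulated data. Libraries of a group differed beyond sampling noise (chi-square per degree of freedom 4.90 to 7.63). Counting intervals cover counting error only, since PCR reads are not independent molecules.

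Replicate numbers in the titles pair the groups. Same-numbered libraries deviated together from their group means (correlations across genes of 0.349, 0.335 and 0.498), so fits with the number as a block are given where they change a call. The genes, the lists and the rule for names (the 10 genes; list genes called in either fit or, for levels, of at least 20 CPM; the 5 tested genes of at least 5 CPM most correlated with Ptgs2; the cell markers) were chosen with earlier results of these data known; further list genes named without a call (Hpgds, Tbxas1, Ptgds, Ptgir, Alox5 and Alox5ap) were chosen after their values were seen. Ptgr3 of the enzyme list was not matched. Alternatives used DESeq2 1.42.0 and limma 3.58.1.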

Additional observations from a re-analysis of the deposited data

How the results depend on the processing

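The signs of the log2 fold changes of all 10 genes held in every alternative that gave a value except that of Ptgis, which was -0.0348 without DKK1 replicate 2 (edgeR adjusted p = 0.927) and up to 0.104 with another library left out (replicate 1 of DKK1); the cause was not tested. Without a block, 2 genes of the 10 were called, and 131 over all genes. With the replicate block these were 7 and 1379, after a GC and length correction of that block fit 7 and 1349, and with DESeq2 and the block 6 and 551. DESeq2 without the block called 289 genes and the fit without a low-count filter 329, each with 2 of the 10. A 2-fold minimum left 21 genes and 0 of the 10 without the block, and 77 and 1 (Hpgd, which passed the low-count filter through the control group) with it. Other normalizations, a minimum of 10 counts in every sample (which leaves out Hpgd), limma-voom, unrounded counts and GC and length correction kept the 2 calls. Leaving out 1 library gave 36 to 139 calls over all genes and 0 to 2 of the 10; leaving out 1 pair in the block fit gave 1312, 612 and 1059 (pairs 1, 2 and 3) and 5 to 6. In those fits Pla2g4a, Ptgs1, Ptgs2, Ptges and Ptger2 were called each time. Over the 6 omissions the log2 difference of the Ptgs2 to Ptgs1 ratio ranged from 0.289 to 0.564, of Ptges to Ptgis from 0.113 to 0.516, and of Ptges to Hpgd from 3.03 to 5.19. The range of Ptges to Hpgd is a description that rests on 1 Hpgd count in each of DKK1 replicates 1 and 2. Leaving out 1 library moved the group-only log2 fold changes of Hpgd, Ptgis, Ptgs1, Ptges, Pla2g4a, Ptger4, Sik1, Slco3a1 and Pde4a by over 1.5 times. Hpgd (1 to 24 counts) and Ptgfr (32 to 131 counts) had the fewest counts of the 10 genes; no alternative varied the depth.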
